A study of Rattus norvegicus with 12 samples.

Results

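The genes described here encode receptors of the lymphocyte surface and the cytotoxic proteins of lymphocyte granules, measured in whole lung of diabetic and normal rats. They are Cd79b, Cd37, Cd2, Cd4, Cd5, Cd8a, Cd8b, Prf1 and Gzmb, and every probe set of the Affymetrix RAE 230A array that the platform annotation assigns to one of them alone was taken, dim ones included. That gave 9 probe sets, 1 for each of the 9 genes, out of 15866 probe sets other than controls and 10411 genes named by a probe set of their own. The diabetic group was 7 male Wistar rats that received intraperitoneal streptozotocin, which is toxic to pancreatic beta cells and so removes the source of insulin, at 8 weeks of age. The normal group was 5 male Wistar rats that received the buffer alone at the same age. All 12 animals were 12 weeks old when the lungs were taken after an overnight fast, which was 4 weeks after the injection, and each animal had its own array, with no pooling. Streptozotocin acted on the whole animal, so an effect of the toxin on other cells and an effect of the lack of insulin cannot be told apart in this design.

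Lymphocytes recognize antigen through receptor complexes whose short cytoplasmic tails pass the signal to tyrosine kinases. In B cells, CD79b and its partner CD79a form the signalling part of the antigen receptor, and in T cells CD4 or CD8 binds the MHC molecule that presents the antigen and brings the kinase Lck to the receptor. Cytotoxic T cells and natural killer cells kill by releasing granules that hold perforin, which opens pores in the membrane of the target cell, and granzymes, proteases that enter through them and start apoptosis. In the lung these cells circulate through the capillary bed, sit in the tissue and gather in lymphoid tissue along the airways. In RNA from whole lung, fewer cells of a type and less RNA per cell cannot be told apart.

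The values are MAS 5.0 signals, a fluorescence intensity on a linear scale that was set so that the trimmed mean of every array was 500.1. Signals of different probe sets are not comparable with each other, so each gene was compared only with itself across animals. As a check of the tissue, 11 of 12 lung epithelium genes listed were measured, and their summed signal was 107500 to 140600 in diabetic lung and 112000 to 133300 in normal lung. The median signal per array was 252.7 to 265.6 in diabetic lung and 259.6 to 272.0 in normal lung. The GAPDH control, whose 3′ signal divided by its 5′ signal depends on RNA integrity and on labelling, had a mean ratio of 1.15 ± 0.0712 (SD, n = 7) in diabetic lung and 1.32 ± 0.0778 (SD, n = 5) in normal lung, which differed (p = 0.00505, two-sided exact permutation test, with 792 ways to split the animals). The same ratio for beta-actin was 2.08 ± 0.372 (SD, n = 7) in diabetic lung and 2.06 ± 0.437 (SD, n = 5) in normal lung (exact permutation test, two-sided, p = 0.922).

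One array stood apart for these genes. Diabetic animal 6 had the lowest signal of all 12 animals for 7 of the 9 genes, whereas it was the lowest animal for 14.7% of all probe sets. The exceptions were Cd8a, where normal animal 1 was lower, and Cd8b. Averaged over the 9 genes, the log2 signal of diabetic animal 6 differed from the mean of the normal animals by -1.21, while the other 6 diabetic animals lay between -0.16 and 0.18 and the 5 normal animals between -0.21 and 0.23. Over the probe sets above the lowest 40% of the array in signal, the median log2 difference of diabetic animal 6 was -0.01. Every array was scaled to the same trimmed mean, and this median ran only from -0.0149 (diabetic animal 3) to 0.0078 (normal animal 4). It therefore cannot show whether the low signals were particular to these genes. The GAPDH ratio of diabetic animal 6, 1.30, was the highest of the diabetic group, and its beta-actin ratio of 2.85 was the highest of all 12 arrays. The part of these ratios in its low signals was not tested. The differences of the 9 genes are therefore given with and without this animal.

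**Figure D1:**
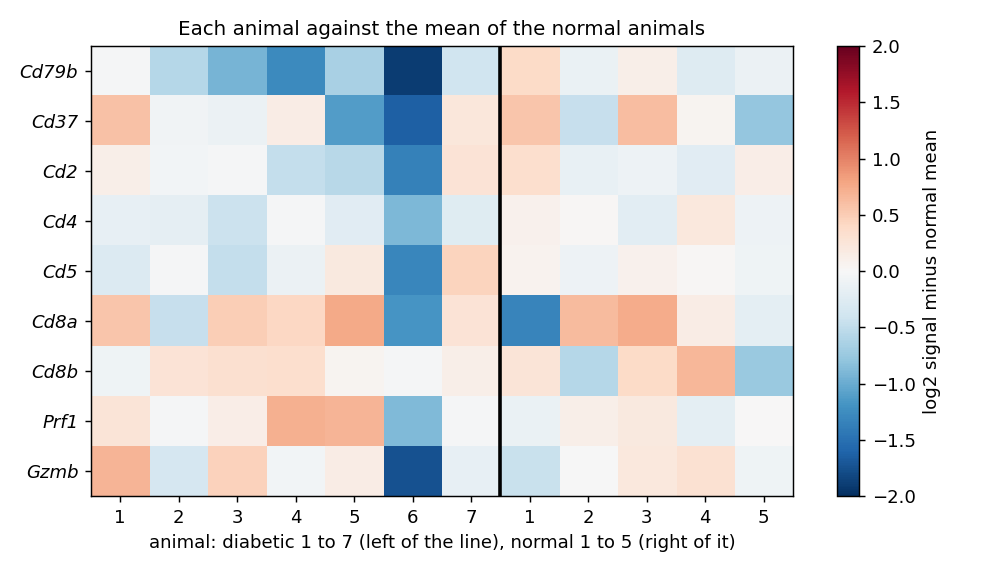
Log2 signal of each of the 9 genes (rows) in each animal (columns, 7 diabetic animals left of the line and 5 normal animals right of it) minus the mean of the normal animals for that gene, with blue for lower and red for higher. The column of diabetic animal 6 is blue in nearly every row, with an average over the 9 genes of -1.21, and among the normal animals the darkest blue cell is Cd8a in animal 1.

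None of the 9 genes changed between diabetic and normal lung at an adjusted p of 0.05. In the limma fit over all 15866 probe sets, 7 probe sets passed this threshold, which is 0.0441% of those tested (0.0126% lower in diabetic lung), and 0 of the 9 genes were among them. The exact permutation test, whose smallest possible p is 0.00126, called 0 probe sets of the whole array after adjustment, so its 0 of 9 adds nothing. At an unadjusted p of 0.05, 2 of the 9 genes passed in limma and the same number by the exact test, both lower in diabetic lung, beside 12.7% of all probe sets in limma and 12.5% in the exact test. In one direction the background was 6.71% of all probe sets lower and 5.96% higher in diabetic lung. The genes concerned were Cd79b and Cd4.

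By point estimate, 6 of the 9 genes were lower and 3 were higher in diabetic lung, with a median log2 difference of -0.225, against a median of -0.02 over all probe sets. Without diabetic animal 6 the split was 5 lower and 4 higher, with a median of -0.05, against -0.02 over all probe sets. The signals of the groups overlapped for all 9 genes, and over the whole array the groups did not overlap for 1.38% of probe sets. The median of the 9 genes was thus nearer to that of the whole array once diabetic animal 6 was left out.

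**Figure D2:**
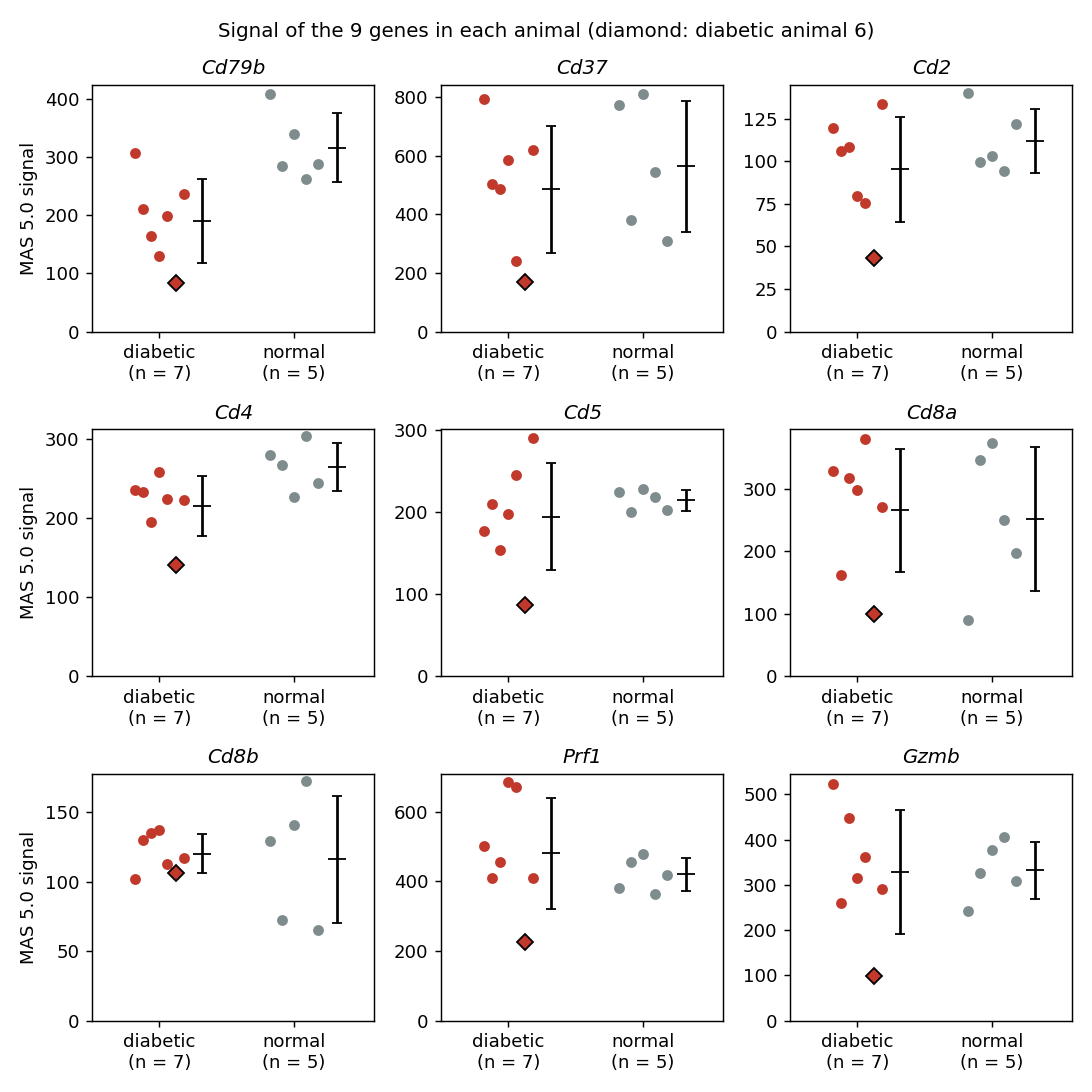
MAS 5.0 signal of each gene (vertical axis, linear and starting at 0) in each diabetic animal (red, n = 7, left) and each normal animal (grey, n = 5, right), with the mean and SD beside each group and diabetic animal 6 drawn as a diamond. The diamond is the lowest point of all animals in 7 of the 9 panels, and Cd79b is the panel in which most of the other diabetic animals also lie below the normal animals.

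Cd79b, the signalling chain of the B cell antigen receptor, had the lowest ratio of diabetic to normal signal of the 9 genes. Its signal was lowest at 84.1, had a median of 198.2 and was highest at 307.3 in diabetic lung, against 407.7, 283.8, 340.1, 262.3 and 287.8 in normal lung. Of the 7 diabetic animals, 6 were below every normal animal, and diabetic animal 1, at 307.3, was above 3 of the 5 normal animals. The means were 190 ± 72.9 (SD, n = 7) in diabetic lung and 316 ± 58.5 (SD, n = 5) in normal lung, a ratio of 0.601. On the log2 scale the difference was -0.82 (SE 0.26), with a 95% interval of -1.37 to -0.27. Its unadjusted p was 0.00604 in limma and 0.0164 in the exact permutation test, and the adjusted p in limma was 0.202.

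The difference in Cd79b was also present without diabetic animal 6. It was then -0.64 (SE 0.19) in limma, with an interval of -1.06 to -0.22, an unadjusted p of 0.00542 and an adjusted p of 0.203. The exact permutation test over the 11 remaining animals gave p = 0.0195. Without any one of the animals in turn, the log2 difference stayed between -0.95 and -0.64. With the GAPDH ratio of each array as a covariate in limma it was -1.58, with an adjusted p of 0.0445, and with that covariate and without diabetic animal 6 it was -1.03, with an adjusted p of 0.596. Because the GAPDH ratio itself differed between the groups, the part of the ratio in the Cd79b difference cannot be told apart from that of the group. Cd79b was also selected by the study from these same arrays, so its values are no independent evidence of its direction.

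Few other B cell genes could be set beside Cd79b, since only 6 of the 32 listed, Cd79b included, had a probe set of their own. None of the 6 passed the adjusted threshold, and 2 were lower at an unadjusted p of 0.05 and 0 were higher. The median log2 difference over the 6 was -0.23, or -0.29 without diabetic animal 6. Over the 5 other than Cd79b the median with all animals was -0.11, with 1 lower and 0 higher at that unadjusted p. The other lower gene was Cd40, a receptor of B cells and other antigen-presenting cells for help from T cells. It had a signal of 147.2 to 248.8 in diabetic lung, with a median of 214.2, against 279.5, 305.3, 364.2, 334.6 and 334.8 in normal lung. The groups did not overlap, and the log2 difference of Cd40 was -0.69 (SE 0.14; limma, adjusted p = 0.0961; exact permutation test, p = 0.00126, the smallest it can give). Diabetic animal 6 was not the lowest animal for Cd40. Cxcl13, a chemokine that draws B cells into follicles, averaged 86.9 ± 21.7 (SD, n = 7) in diabetic lung and 143 ± 39.0 (SD, n = 5) in normal lung, a log2 difference of -0.71 (SE 0.21; limma, adjusted p = 0.183; exact permutation test, p = 0.00758). Diabetic animal 6 was inside the range of the diabetic group for Cxcl13. Cxcr5, the receptor for this chemokine on B cells, averaged 192 ± 24.8 (SD, n = 7) in diabetic lung and 191 ± 29.0 (SD, n = 5) in normal lung, and Cd24, a glycoprotein of B cells that epithelium also carries, averaged 1186 ± 246 (SD, n = 7) in diabetic lung and 1260.0 ± 124 (SD, n = 5) in normal lung. Summed over the 6 genes, the B cell list had 1627 to 2183 units of signal in diabetic lung and 1992 to 2407 in normal lung, most of it from Cd24. Pou2f2, a transcription factor of B cells, averaged 71.0 ± 37.7 (SD, n = 7) in diabetic lung and 39.8 ± 18.2 (SD, n = 5) in normal lung, and Fcer2, a low-affinity receptor for IgE, was near 0 in all animals, at 3.3 to 7.0 in diabetic lung and 5.3 to 6.7 in normal lung. Syk and Lyn, kinases that act next to the B cell receptor, had smaller differences than Cd79b. The part of cells other than B cells in their signals was not tested. Syk averaged 418 ± 55.7 (SD, n = 7) in diabetic lung and 417 ± 58.0 (SD, n = 5) in normal lung, and Lyn averaged 771 ± 144 (SD, n = 7) in diabetic lung and 868 ± 90.2 (SD, n = 5) in normal lung, with log2 differences of 0.00 and -0.19.

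Cd37, a tetraspanin that organizes receptors in the membrane of B cells and other leukocytes, varied widely in both groups. Its signal ran from 169.9 through a median of 502.3 to 793.2 in diabetic lung, against 773.4, 382.5, 810.1, 543.6 and 309.2 in normal lung. Diabetic animals 5 and 6 lay below all normal animals, and the other 5 diabetic animals lay within the normal range. The log2 difference was -0.28 (SE 0.36), with an interval of -1.04 to 0.48 (limma, adjusted p = 0.793). Without diabetic animal 6 it was -0.05, with an interval of -0.69 to 0.58. Such intervals leave room for a difference of either sign. Other tetraspanins of the same family gave no call: Cd53, a leukocyte tetraspanin, averaged 2142 ± 472 (SD, n = 7) in diabetic lung and 2097 ± 192 (SD, n = 5) in normal lung, and Cd81, which belongs to the B cell coreceptor and is made by many other cells, averaged 5390.0 ± 1041 (SD, n = 7) in diabetic lung and 6232 ± 450.4 (SD, n = 5) in normal lung (limma, adjusted p = 0.446 for Cd81).

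Cd2, an adhesion receptor of T cells and natural killer cells, was among the dimmer probe sets, under the signal of 170.0 that marks the lowest 40% of the array. Its signal ran from 43.1 through a median of 106.1 to 133.5 in diabetic lung, against 139.9, 99.4, 103.1, 94.3 and 121.8 in normal lung. Apart from diabetic animals 4, 5 and 6, the diabetic animals lay within the normal range. The log2 difference was -0.30 (SE 0.25) with an interval of -0.84 to 0.24 (limma, adjusted p = 0.676), and without diabetic animal 6 it was -0.12 with an interval of -0.53 to 0.29. Cd48, a ligand of Cd2 in rodents, averaged 3262 ± 424 (SD, n = 7) in diabetic lung and 3034 ± 487 (SD, n = 5) in normal lung.

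Cd4, the coreceptor of helper T cells, which rat macrophages also carry, was the other gene with an unadjusted p below 0.05. Its signal was 235.3, 233.1, 194.4, 257.9, 223.7, 140.6 and 222.9 in diabetic animals 1 to 7, against 280.1, 267.2, 226.5, 303.8 and 244.5 in normal lung. All 7 diabetic animals lay below the normal median of 267.2, and 4 of them lay below every normal animal. The means were 215 ± 38.0 (SD, n = 7) in diabetic lung and 264 ± 30.2 (SD, n = 5) in normal lung. On the log2 scale the difference was -0.31 (SE 0.14), with an interval of -0.62 to -0.0019 (limma, p = 0.0488, adjusted p = 0.393; exact permutation test, p = 0.0404). Without diabetic animal 6 it was -0.21 in limma, with an unadjusted p of 0.0764, while the exact permutation test gave p = 0.0455. Leaving out each animal in turn gave an unadjusted p in limma of 0.0299 to 0.117, the highest without normal animal 4. With the GAPDH ratio as a covariate and without diabetic animal 6, the sign turned, to 0.057. The 12 macrophage genes measured beside Cd4 had other values: 4 of them were higher at an unadjusted p of 0.05 and 0 were lower. Cd14, a coreceptor for bacterial lipopolysaccharide on macrophages, averaged 660.1 ± 204 (SD, n = 7) in diabetic lung and 419 ± 54.3 (SD, n = 5) in normal lung, a log2 difference of 0.61 (SE 0.18; limma, adjusted p = 0.183; exact permutation test, p = 0.0164). Cd14 was also selected by the study from these same arrays, so its values are no independent evidence of its direction. The part of macrophages in the Cd4 signal was not tested.

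Cd5, a receptor that damps signalling by the T cell receptor, had its 5 normal animals close together and its 7 diabetic animals spread out. Its signal was 177.0, 209.9, 153.1, 197.0, 244.4, 86.7 and 290.1 in diabetic animals 1 to 7, against 224.3, 199.7, 227.5, 217.9 and 201.9 in normal lung. Of the diabetic animals, 4 were below and 2 were above every normal animal, so only diabetic animal 2 fell inside the normal range. The SD was 65.2 around a mean of 194 in diabetic lung and 12.8 around a mean of 214 in normal lung. This difference in spread was not tested. The log2 difference of Cd5 was -0.225 (SE 0.23; limma, adjusted p = 0.731), and -0.05 without diabetic animal 6.

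The rest of the T cell list held no gene past the threshold either. Of 42 genes listed, 22 were measured, including 5 of the genes described here, and 0 of them passed the adjusted threshold, while 1, Cd4, was lower and 0 were higher at an unadjusted p of 0.05. Their median log2 difference was -0.11, and -0.04 without diabetic animal 6. Chains of the CD3 complex, which carries the signal of the T cell receptor, overlapped between the groups. Cd3g averaged 479 ± 148 (SD, n = 7) in diabetic lung and 504 ± 69.9 (SD, n = 5) in normal lung, Cd3d averaged 229 ± 70.7 in diabetic lung and 265 ± 14.02 in normal lung, and Cd3e averaged 138 ± 28.2 in diabetic lung and 135 ± 43.2 in normal lung. Lck, the kinase bound by the tails of CD4 and CD8, averaged 865 ± 231 (SD, n = 7) in diabetic lung and 890 ± 73.0 (SD, n = 5) in normal lung, a log2 difference of -0.09 (SE 0.19; limma, adjusted p = 0.874). Its lowest value, 422.5, was that of diabetic animal 6, and the other 6 diabetic animals ran from 714.0 to 1123.3. Lef1, a transcription factor of T cells, had the smallest p of the list after Cd4, with 232 ± 78.4 (SD, n = 7) in diabetic lung and 294 ± 73.2 (SD, n = 5) in normal lung (limma, adjusted p = 0.544). Icos, a costimulatory receptor of activated T cells, averaged 110.1 ± 20.1 (SD, n = 7) in diabetic lung and 129 ± 20.2 (SD, n = 5) in normal lung. Of 17 T cell genes other than those described here, 10 had their lowest signal in diabetic animal 6.

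Cd8a and Cd8b encode the chains of the CD8 coreceptor of cytotoxic T cells and lie next to each other on chromosome 4, with 0 protein-coding genes starting between them in the RefSeq annotation of the GRCr8 assembly. Cd8a had a signal of 99.3 to 380.0 in diabetic lung, with a median of 297.6, against 89.8, 345.9, 373.2, 249.5 and 196.2 in normal lung. Diabetic animal 6 (99.3) and normal animal 1 (89.8) were the lowest of the 12, and the next was diabetic animal 2, at 162.3. The log2 difference of Cd8a was 0.12 (SE 0.37), with an interval of -0.67 to 0.91 (limma, adjusted p = 0.927). It was 0.34 without diabetic animal 6 and -0.21 without normal animal 1, so its sign depended on single animals.

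Cd8b was dimmer, with a signal of 102.0 to 137.2 in diabetic lung and a median of 117.4, against 129.7, 72.6, 140.8, 172.3 and 65.0 in normal lung. Here the diabetic animals were the close group and the normal animals the spread one. The log2 difference was 0.14 (SE 0.23), with an interval of -0.35 to 0.64 (limma, adjusted p = 0.846), and it was 0.17 without diabetic animal 6. The chains can pair in the same receptor. With the mean of each group removed, r of their signals was -0.02 and rho was -0.007 over the 12 animals (permutation within groups, p = 0.970 and p = 0.992).

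**Figure D3:**
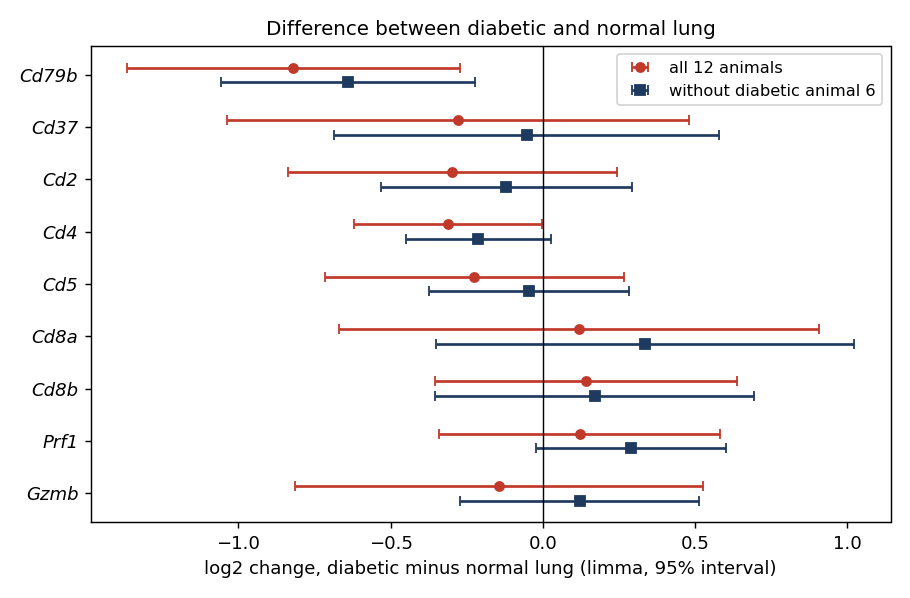
Log2 difference of each of the 9 genes, diabetic minus normal lung, with its 95% interval from limma, for all 12 animals (red circles) and without diabetic animal 6 (blue squares). Only the interval of Cd79b lies clearly below 0 in both fits, at -0.82 and -0.64, while the upper end for Cd4 touches 0 and those of the other 7 genes span it.

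Prf1 encodes perforin and Gzmb encodes granzyme B, the pore-forming protein and a protease of the cytotoxic granule. Prf1 had a signal of 225.8 to 686.0 in diabetic lung, with a median of 456.1, against 381.8, 454.9, 479.4, 365.0 and 419.7 in normal lung. Diabetic animals 1, 4 and 5 were above every normal animal and diabetic animal 6 was below every one of them. The log2 difference of Prf1 was 0.12 (SE 0.22), with an interval of -0.34 to 0.58 (limma, adjusted p = 0.859). Without diabetic animal 6 it was 0.29 (SE 0.15), with an interval of -0.02 to 0.60, an unadjusted p of 0.0669 and an adjusted p of 0.434.

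Gzmb had a signal of 98.0 to 523.8 in diabetic lung, with a median of 314.2, against 241.1, 326.1, 377.0, 405.5 and 309.3 in normal lung. Diabetic animals 1 and 3 were above every normal animal, and diabetic animal 6, at 26.8% of the mean of the other diabetic animals, was below every one. The log2 difference of Gzmb was -0.14 (SE 0.31), with an interval of -0.82 to 0.53 (limma, adjusted p = 0.889), and 0.12 without diabetic animal 6, so that this animal set its sign. A further probe set that names Gzmb together with a second locus was left out of the 9 by the rule and was dim, at 1.7 to 24.0 in diabetic lung and 4.0 to 17.2 in normal lung.

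The promoters of Cd8a, Prf1 and Gzmb are shown because r between Cd8a and each of the other genes passed with all 12 animals, though not without diabetic animal 6 (values below). Each is the 250 bases before the transcription start site, 5′ to 3′ on the strand of the gene, from RefSeq on GRCr8: chr4:104923866-104924115 on the plus strand for Cd8a, chr20:29788790-29789039 on the plus strand for Prf1 and chr15:34462470-34462719 on the minus strand for Gzmb. Capitals mark matches, on either strand, to a RUNX site (TGTGGT), an AP-1 site (TGANTCA), an ETS site (AGGAAG), an E-box (CAGGTG) or an octamer (ATGCAAAT).
Cd8a: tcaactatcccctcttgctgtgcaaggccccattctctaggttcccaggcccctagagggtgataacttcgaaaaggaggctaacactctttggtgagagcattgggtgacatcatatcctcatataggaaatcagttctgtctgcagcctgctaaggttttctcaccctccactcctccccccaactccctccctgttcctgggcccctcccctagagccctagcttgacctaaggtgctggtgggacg
Prf1: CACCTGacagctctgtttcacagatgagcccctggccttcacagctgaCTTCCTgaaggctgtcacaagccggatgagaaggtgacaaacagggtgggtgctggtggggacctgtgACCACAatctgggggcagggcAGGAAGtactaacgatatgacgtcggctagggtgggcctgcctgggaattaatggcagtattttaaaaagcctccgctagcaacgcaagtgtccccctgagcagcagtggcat
Gzmb: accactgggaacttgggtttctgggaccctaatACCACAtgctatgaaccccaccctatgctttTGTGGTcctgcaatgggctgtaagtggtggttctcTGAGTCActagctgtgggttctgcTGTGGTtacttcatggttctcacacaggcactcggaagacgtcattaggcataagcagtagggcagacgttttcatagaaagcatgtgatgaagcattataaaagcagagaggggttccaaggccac
Prf1 had a RUNX match 134 bases before the start site, ETS matches 202 and 113 bases before it and an E-box at 250 bases. Gzmb had RUNX matches 217, 186 and 127 bases before the start site and an AP-1 match 151 bases before it, and Cd8a had none of these letters in its window. RefSeq promoters were matched for 6 of the 9 genes (Cd37, Cd2, Cd5, Cd8a, Prf1 and Gzmb). A RUNX match was found in 3 of these 6, against 14.5% of 33469 rat promoters of the same length, an ETS match in 3, against 29.5%, an E-box in 2, against 15.9%, an AP-1 match in 1, against 6.34%, and an octamer in 0, against 1.56%. The matches are letters in a window and were not linked to any measurement here.

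Other genes of the cytotoxic granule and of natural killer cells were measured for 25 of 44 listed, Prf1 and Gzmb included. None passed the adjusted threshold, 1 was lower and 1 was higher at an unadjusted p of 0.05, and the median log2 difference was -0.08, or 0.04 without diabetic animal 6. The higher one was Ctsc, which encodes cathepsin C, the protease that activates granzymes and also acts in macrophages and neutrophils. Ctsc had 1982.9, 2235.9, 2067.9, 2084.2, 1809.7, 2555.0 and 1985.7 units of signal in diabetic animals 1 to 7, against 1604.1, 1605.0, 1756.6, 1423.7 and 1739.7 in normal lung. The groups did not overlap, and the log2 difference was 0.37 (SE 0.08; limma, adjusted p = 0.111; exact permutation test, p = 0.00126, the smallest it can give). In contrast to Prf1 and Gzmb, diabetic animal 6 had the highest Ctsc signal of all 12 animals. The lower one was Klrc1, an inhibitory receptor of natural killer cells, which was dim at 9.6 to 15.2 in diabetic lung and 15.9 to 20.9 in normal lung. Gzmm, another granzyme, averaged 280.2 ± 78.9 (SD, n = 7) in diabetic lung and 337 ± 35.0 (SD, n = 5) in normal lung, and Xcl1, a chemokine of killer cells, was dim at 6.7 to 42.8 in diabetic lung and 8.2 to 16.5 in normal lung. Nkg7, a granule membrane protein, averaged 435 ± 130 (SD, n = 7) in diabetic lung and 461 ± 49.6 (SD, n = 5) in normal lung. Serpinb9, an inhibitor of granzyme B that protects the killer cell itself, averaged 2461 ± 696 (SD, n = 7) in diabetic lung and 2796 ± 146 (SD, n = 5) in normal lung, and its lowest value was again that of diabetic animal 6, at 1125.8.

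The lists of genes that act around the 9 held 0 calls as well. Of 30 coreceptor and signalling partners listed, 21 were measured, with 0 lower and 1 higher at an unadjusted p of 0.05 (Ctsc) and a median log2 difference of -0.01, or 2 higher and a median of 0.06 without diabetic animal 6. Of 27 pan-leukocyte genes, 19 were measured, with 0 lower and 1 higher and a median of -0.12, or 0 lower and 3 higher (Lcp1, Rac2 and Ptprc) and a median of -0.04 without diabetic animal 6. With all animals the higher one was Lcp1, an actin-bundling protein of leukocytes, with 3733 ± 474 (SD, n = 7) in diabetic lung and 3196 ± 321 (SD, n = 5) in normal lung. Of 21 homing and lymphoid tissue genes, 12 were measured, with 2 lower, 0 higher and a median of -0.09, or -0.04 without diabetic animal 6. These were Cxcl13 and Ltbr, a receptor needed to build lymphoid tissue, which averaged 1052 ± 53.0 (SD, n = 7) in diabetic lung and 1190.0 ± 92.0 (SD, n = 5) in normal lung.

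Lists of other cell types served to show what else moved with the groups. At an unadjusted p of 0.05, 1 of 13 macrophage and monocyte genes was lower (Cd4) and 4 were higher, 1 of 12 mast cell genes was lower (Mcpt1), 1 of 2 thymocyte genes was lower (Cd99), 2 of 11 lung epithelium genes were lower (Aqp5 and Ager) and 1 was higher (Hopx), and 0 of 8 neutrophil, 3 red cell and 3 adipocyte genes passed. None was called after adjustment. Their median log2 differences were 0.04 for macrophage, -0.18 for mast cell, -0.26 for thymocyte, -0.06 for lung epithelium, 0.16 for neutrophil, -0.19 for red cell and 0.04 for adipocyte genes. They were, with diabetic animal 6 left out, 0.06 for macrophage, -0.04 for mast cell, -0.26 for thymocyte, -0.09 for lung epithelium, 0.36 for neutrophil, -0.06 for red cell and 0.06 for adipocyte genes. Many of the list genes are made by more than 1 cell type, and their part in the signals of the 9 genes was not tested.

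The low signals of diabetic animal 6 were not confined to the 9 genes, and they were unequal between the gene lists. Over 23 further cytotoxic and natural killer cell genes its mean log2 difference from the normal animals was -0.71, with the other diabetic animals between -0.14 and 0.18 and the normal animals between -0.05 and 0.08. Over 18 further pan-leukocyte genes it was -0.57, with the other diabetic animals between -0.07 and 0.14 and the normal animals between -0.11 and 0.11, and 15 of the 18 had their lowest signal in this animal. Over 17 further T cell genes it was -0.55, below the other diabetic animals at -0.44 to 0.27 and the normal animals at -0.21 to 0.17. The 5 B cell genes other than Cd79b had a mean of -0.12 in diabetic animal 6, inside the range of the other diabetic animals (-0.51 to 0.17) and of the normal animals (-0.28 to 0.22). They include Cd24, which epithelium also carries and which was highest of all animals in this one (1684.3). Fcer2 (5.4) and Pou2f2 (34.8) were dim there. Cd79b itself was lowest of all animals in this one (84.1), and with it the mean of the B cell list was -0.42. The part of B cells in these values was not tested.

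Cell types outside the lymphocytes were divided in the same animal. The mean over 12 macrophage genes was 0.03 in diabetic animal 6, within the -0.13 to 0.51 of the other diabetic animals and the -0.35 to 0.11 of the normal animals. The -0.35 was that of normal animal 4, where the dim gene Fabp4 was 5.7, against 51.8 or more in the other animals. Over 11 lung epithelium genes the mean of diabetic animal 6 was 0.09, above the other diabetic animals (-0.19 to 0.00) and at the upper end of the normal animals (-0.08 to 0.09). Mast cell genes (12, mean -1.09) and red cell genes (3, mean -0.87) were lower in this animal than in any other. Of the 12 mast cell genes, only 4 lay above the lowest 40% of the array in signal. For 7 of the 12, diabetic animal 6 was the lowest of all animals: Mcpt9 (2.0), Mcpt10 (3.1), Mcpt1 (23.4), Tpsab1 (26.5), Fcer1a (107.4), Hdc (161.1) and Cpa3 (202.6). Its signals of Kit (240.7), Tpsb2 (303.4), Ms4a2 (71.6), Mcpt8 (41.1) and Cma1 (15.4) lay within the range of the normal animals. Summed signals went the same way for some lists only. The T cell list had 3189 units in diabetic animal 6, 4235 to 6498 in the other diabetic animals and 5036 to 6125 in normal lung, and the pan-leukocyte list had 25490 units in diabetic animal 6, 35460 to 43690 in the other diabetic animals and 35270 to 39100 in normal lung. The sums of the B cell list (2183) and of the homing list (13280) were instead the highest of the diabetic group in this animal, although the mean log2 difference of the homing list was -0.28. Cd24 alone had 1684.3 units of the B cell sum, and S1pr1 (6421.8) and Klf2 (3170.5) were the largest parts of the homing sum. The share of cells and the RNA content per cell in this animal were not measured.

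**Figure D4:**
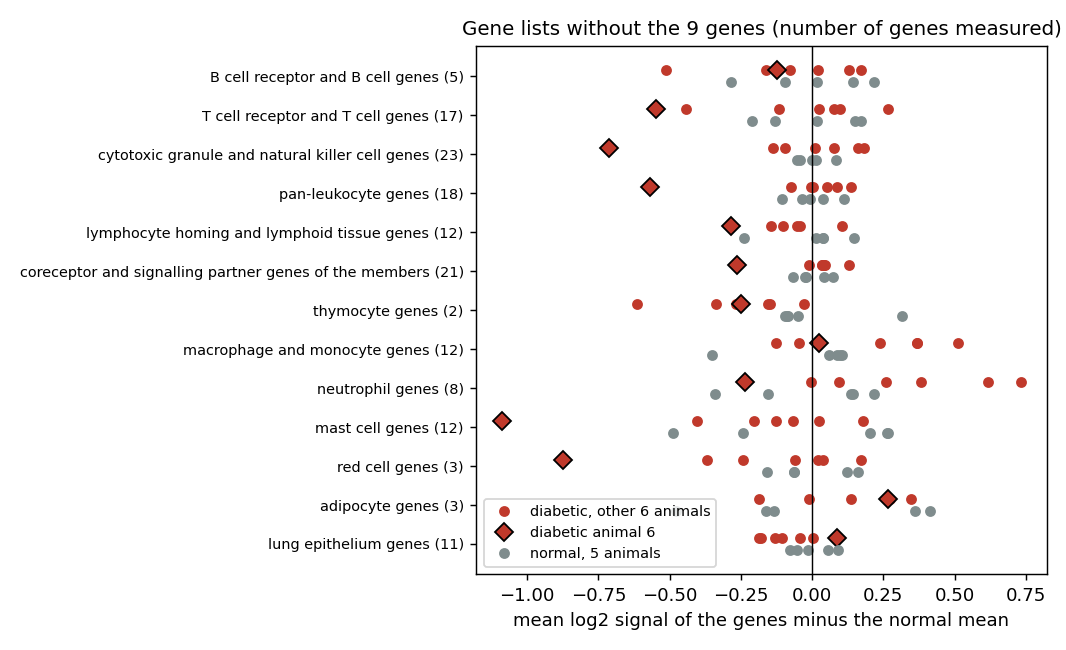
Mean log2 signal of the genes of each list, with the 9 genes left out, minus the mean of the normal animals (horizontal axis), for the 6 other diabetic animals (red circles), diabetic animal 6 (red diamond) and the 5 normal animals (grey circles); the number of genes is in parentheses. Diabetic animal 6 lies left of all other animals for cytotoxic (-0.71), pan-leukocyte (-0.57) and T cell genes (-0.55). It lies among them for the B cell genes other than Cd79b (-0.12) and for macrophage genes (0.03). The cytotoxic mean includes the dim genes Klrb1c and Ifng, which were lowest in diabetic animal 6.

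The 9 genes were also compared with each other across animals, with the mean of each group removed so that a difference between the groups could not link them. Over the 36 pairs and 12 animals, Pearson's r was above 0 for 35 pairs, with a median of 0.563. Without diabetic animal 6 it was above 0 for 17 of 36 pairs, with a median of -0.04, and the number of pairs with r of at least 0.7 was 7 with this animal and 0 without it. The tendency of the 9 genes to vary together in these arrays therefore rested on 1 animal.

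With Benjamini-Hochberg adjustment over the 36 pairs, 3 pairs passed by r and 0 by rho. For Cd8a and Gzmb, r was 0.789 (permutation within groups, p = 0.00093, adjusted p = 0.0335) and rho was 0.748 (p = 0.00712, adjusted p = 0.128, by the same permutation). For Cd8a and Prf1, r was 0.722 (permutation, p = 0.00241, adjusted p = 0.0415) and rho was 0.720 (permutation, p = 0.0107, adjusted p = 0.129). For Cd79b and Cd2, r was 0.857 (permutation, p = 0.00346, adjusted p = 0.0415) and rho was 0.797 (permutation, p = 0.00608, adjusted p = 0.128). Cd8a thus went with both genes of the cytotoxic granule, and the B cell gene Cd79b went with the T cell gene Cd2.

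None of the 3 pairs passed once the animals farthest from the median were left out. Without diabetic animal 6 and normal animal 1, r of Cd8a and Gzmb was 0.564 (permutation, p = 0.1003, adjusted p = 0.883) and r of Cd8a and Prf1 was 0.603 (permutation, p = 0.0659, adjusted p = 0.883). Without diabetic animals 4 and 6, r of Cd79b and Cd2 was 0.552 (permutation, p = 0.142, adjusted p = 0.883). Leaving out diabetic animal 6 alone gave r of 0.679 for Cd8a and Gzmb, 0.514 for Cd8a and Prf1 and 0.666 for Cd79b and Cd2, each with an adjusted p of 0.422 over the 36 pairs by permutation. The adjusted calls were lost with fewer animals, while r stayed above 0.5 in all 3 pairs. For Cd8a and Gzmb, rho was 0.709 without diabetic animal 6, and r was 0.824 over the 5 normal animals alone, given as a description. Normal animal 1 was the lowest of these 5 for both genes, and over the same 5 animals the median r of all 36 pairs was -0.03. Prf1 and Gzmb, whose proteins share the granule, had r of 0.734 with all animals (permutation, adjusted p = 0.226) and 0.160 without diabetic animal 6.

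**Figure D5:**
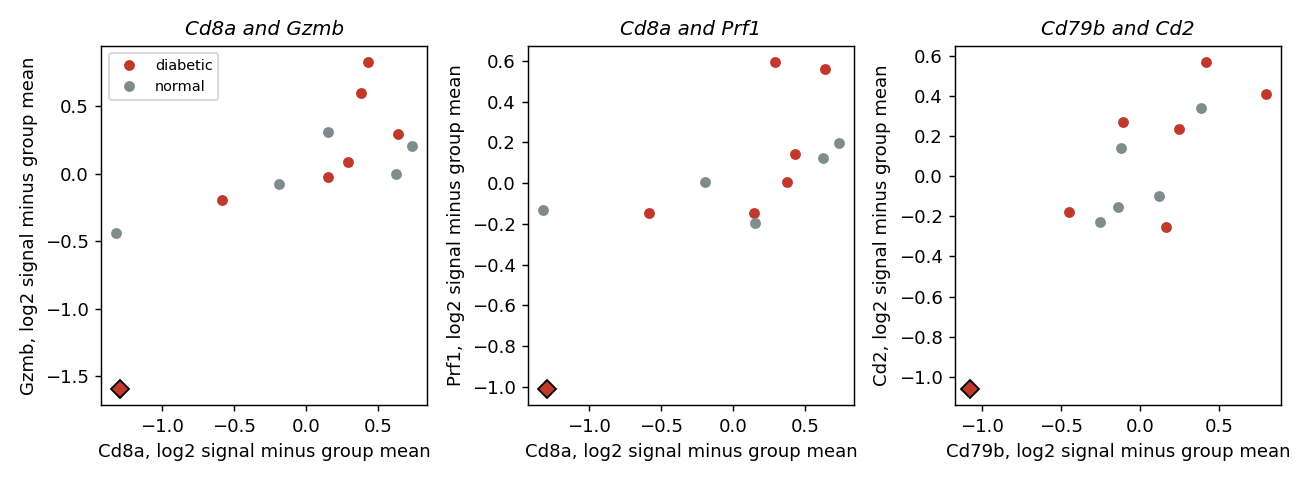
Log2 signal of 1 gene against another, each minus the mean of its group, for the 3 pairs that passed by r, with diabetic animals in red, normal animals in grey and diabetic animal 6 as a diamond. Diabetic animal 6 sits in the lower left corner of every panel, and without it r was 0.679 for Cd8a and Gzmb, 0.514 for Cd8a and Prf1 and 0.666 for Cd79b and Cd2.

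The genes most like each member over the 12 animals, again with group means removed, were searched among 8042 probe sets that name a single gene and lie above the lowest 40% in signal. For Gzmb they were Slc15a3 (r = 0.958), Rac2 (r = 0.930) and Rad1 (r = 0.918), and for Cd5 they were Fut4 (r = 0.954), Fkbp1a (r = 0.946) and Lck (r = 0.940). Rac2 is a small GTPase of blood cells and Lck is the T cell kinase named above. For Cd79b they were Znrd2 (r = 0.943), Mfap5 (r = 0.925) and Unc119 (r = 0.922), and for Cd8a they were Cops4 (r = 0.930), Tmem160 (r = 0.914) and Cdc23 (r = 0.912). For Prf1 they were Tmem164 (r = 0.928), Atf1 (r = 0.919) and Cracdl (r = 0.916). For Cd37 they were Lman2 (r = 0.919), Tomm6 (r = 0.900) and Pop4 (r = 0.895), and for Cd4 they were Apln (r = 0.910), Smarcc1 (r = 0.904) and Rassf5 (r = 0.904). These values are the highest of 8042 and carry no test. When diabetic animal 6 was left out, 5 of these 21 genes were still among the 3 most alike, namely Znrd2 for Cd79b, Tomm6 for Cd37, Fkbp1a for Cd5, Cops4 for Cd8a and Slc15a3 for Gzmb.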

How the data were processed

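Lung RNA of 7 diabetic and 5 normal rats was measured on Affymetrix RAE 230A arrays, each for 1 animal. The authors used MAS 5.0 to summarise each probe set, and the deposited values are an intensity on a linear scale, with every array scaled to the same trimmed mean. Of 15923 probe sets, 57 controls were left out, and 1 value at or below 0 was set to 0.1. Gene names came from Entrez IDs for 12748 probe sets, from accessions for 2 and from symbols for 33, while 312 named several genes and 2771 named none. A linear model of log2 signals was fitted with limma 3.58.1 in R 4.3.3 (eBayes, intensity trend, two-sided tests), over all 15866 probe sets with no filter, since the genes include dim ones, and called at an adjusted p of 0.05 (Benjamini-Hochberg). The methods' Bayesian analysis of variance and the present and absent calls were not used here. An exact permutation test, which went through the 792 possible splits of the animals, was run beside it in python 3.11.15. Pairs of genes were compared by 100000 permutations within groups. Gene lists took the probe set of highest mean log2 signal of each gene, and a list's mean log2 difference is the mean over its genes of the log2 signal minus the normal mean. The text names the 9 genes, up to 4 genes of smallest p in the lists, and the 3 genes most like each of the 7 brighter ones. Further genes of the lists (Cd24, Cd3e, Cd3g, Cd48, Cd53, Cxcr5, Lck, Lyn, Nkg7, Serpinb9 and Syk) were named for their role, after their values were seen. The mast cell genes Cma1, Hdc, Kit, Mcpt8, Mcpt9, Mcpt10, Ms4a2 and Tpsab1 were named after their values in diabetic animal 6 were seen. So were Ifng and Klrb1c of the cytotoxic list. The 9 genes, the lists and some of the genes named were chosen with earlier results of these data known. The fit was tested on simulated data. Precision is limited by the number of arrays. Settings varied were scaling, a pseudocount of 64, a filter on the lowest 40%, the variance model, weights for arrays, a block for the replicate number, the GAPDH ratio as a covariate, the threshold, the test, the probe set of a gene and leaving out each animal. Those that combine another setting with leaving out diabetic animal 6 were added after seeing the data.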

Additional observations from a re-analysis of the deposited data

Results flagged for a closer look

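The values examined were signals of the 9 genes and of the list genes of smallest p, means of the lists and measures of array quality. Each was taken within 1 group of animals. Of 140 such groups of values, 18 held 1 animal whose gap to the nearest other animal was over Dixon's critical share of the group's range (0.71 for 5 animals and 0.568 for 7). Chance alone marks about 1 in 20 such groups. Of the 18 groups of signals of the 9 genes themselves, 0 were marked, but their average was: the mean log2 difference of the 9 genes from the normal mean was -1.21 in diabetic animal 6, against -0.16 to 0.18 in the other diabetic animals. The same animal stood apart in the mean log2 difference of cytotoxic granule and natural killer cell genes (-0.76), of pan-leukocyte genes (-0.62) and of genes that act beside the 9 (-0.26), where the first 2 lists include members. The cytotoxic list also includes dim genes. Diabetic animal 6 stood apart from its group in the GAPDH ratio too, at 1.30 against 1.10 to 1.17 in the other diabetic animals. That ratio was inside the normal range of 1.23 to 1.44. It also had the highest signals of S1pr1 (6421.8) and Cfd (244.1) among the diabetic animals.

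Other animals stood apart in a list or a gene. Normal animal 1 had the highest mean of the 2 thymocyte genes (0.32) and the highest signals of Gzmm (399.0) and Ager (10514.6) in its group, and normal animal 4 had the lowest mean of macrophage genes (-0.31), the lowest Fabp4 (5.7) and the highest Slc4a1 (288.0). Fabp4 is a dim gene of the macrophage list, so the macrophage mean of normal animal 4 rested in part on it. Normal animal 3 was highest for Ptprc (1315.4), and normal animal 5 was lowest for S1pr1 (3110.5) and Tpsb2 (119.8). In the diabetic group, animal 5 was highest for Defa5 (25.7) and animal 4 was lowest for Ager (5760.1).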

How the results depend on the processing

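The number of the 9 genes past the threshold was 0 in limma and in every alternative but one, the GAPDH ratio as a covariate, which called 1 (Cd79b, log2 difference -1.58, adjusted p = 0.0445). Cd79b kept its sign in all 23 alternatives, with adjusted p from 0.0445 to 0.596, and ranged from -0.95 to -0.64 when each animal was left out in turn. The number of all probe sets called, 7 in the fit reported, was 120 with the GAPDH covariate, 44 at an adjusted p under 0.10, 23 with array weights, 16 with the lowest 40% removed, 13 after quantile normalization and 0 with no intensity trend, by the exact permutation test with or without diabetic animal 6, and with the GAPDH covariate without that animal. It was 0 to 20 when each animal was left out in turn: 20 without diabetic animal 6, 3 without diabetic animal 4, 1 without normal animal 2, and 0 without diabetic animals 1, 2, 3 or 7 or normal animals 3 or 4. Signs changed for Cd4, Cd8a, Cd8b, Prf1 and Gzmb, none of which passed the adjusted threshold in any setting. Of these, Cd4 had an unadjusted p of 0.0488 in the limma fit reported. With the GAPDH covariate Cd8a was -0.80 and Prf1 was -0.60, and with that covariate and without diabetic animal 6, Cd4 was 0.057, Cd8a was -0.12, Prf1 was -0.081 and Gzmb was 0.34. Leaving out each animal gave -0.21 to 0.34 for Cd8a, -0.042 to 0.31 for Cd8b and -0.28 to 0.12 for Gzmb. The cause of these shifts was not tested. Pairs of genes past the threshold were 3 with all animals, 0 without the 2 farthest animals and 0 without diabetic animal 6.

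With the replicate number as a block, 0 probe sets and 0 of the 9 genes were called, Cd79b was -0.69 (limma, adjusted p = 0.26) and Gzmb was 0.18. Animals with the same number shared only a number: the correlations of their deviations from the group means were -0.0584, 0.0384, 0.0124, -0.0268 and -0.123.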
